A study of Mus musculus with 27 samples.

Results

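Complement is the group of proteins described here, through 8 of its genes among the 22524 genes counted in each library. They were taken by name, with earlier results of these data known. C3, C2, Cfb and C4b encode the components that build the C3 convertases, and Cfi, Cd55, Cd59a and Cd46 encode regulators that restrain the cascade. RNA was sequenced from 27 libraries of 3 cell models. Epithelial organoids were grown from jejunal crypts of 9 adult male C57BL/6 mice, of which 3 were littermates from each of 3 animal facilities: SR and SE, both specific pathogen-free (SPF), and GF, which is germ-free. Each of the 9 organoid cultures gave 1 library labelled untreated and 1 labelled as treated with 5 ng/ml of the cytokine TNF for 8 h. m-ICc12, an immortalised cell line from the mouse small intestine, gave 3 libraries of each label, which share the numbers 1 to 3 but are not stated to be pairs. Mouse embryonic fibroblasts (MEFs) gave 3 untreated libraries. The organoids were kept in Matrigel domes with complete Intesticult medium and hold no added immune or stromal cells, and the m-ICc12 medium contained dexamethasone, a glucocorticoid. The labels do not say whether the m-ICc12 and MEF libraries came from independent cultures, so that p-values on them measure the spread between these libraries, which may be technical.

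Complement is a cascade of plasma and membrane proteins that tags and lyses microbes. Its classical and lectin pathways cleave C4 and C2 to form one C3 convertase, and its alternative pathway joins C3b with factor B (Cfb) to form another, so that C3 is the component on which all 3 routes meet. Factor I (Cfi) is the protease that cuts C3b and C4b, Cd55 (decay-accelerating factor) dissociates the convertases, Cd46 is a cofactor of factor I, and Cd59a blocks the membrane attack complex that ends the cascade. The liver makes most of the circulating components, while epithelial cells and fibroblasts also make some of them, and C3 and factor B are known to respond to inflammatory cytokines.

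Levels are given as CPM, the counts of a gene scaled to a common library size by the library total and its TMM factor. The libraries held between 6071103 and 43843615 counts (median 30339856), so that a floor of 3 counts corresponds to 0.0684 to 0.494 CPM, for counting error only. In all 12 pairs, the name of the deposited data gives the opposite treatment of the label. The labels are followed throughout and every direction of a TNF comparison is by label. Of 8 genes that TNF is known to induce through NF-κB, 7 were tested in organoids and 6 of them were lower under the label TNF, as were 6 of 8 in m-ICc12 cells, and none was higher. Nfkbia, the NF-κB inhibitor, was lower in 9 of 9 organoid cultures (log2 fold change −2.66) and in m-ICc12 cells without overlap of the labels (log2 fold change −2.13). These known targets go against the labels. The study names C3 among the previously described TNF targets that changed with TNF in its organoids. By the names of the data, the untreated organoid and m-ICc12 libraries are those labelled TNF-treated, which bears on each comparison with the untreated MEFs. Genes of the intestinal epithelium summed to 3701 to 4177 CPM over 10 markers in the organoid libraries, but to 21.5 to 52.15 CPM in m-ICc12 cells, so that this line carried these markers at only low levels. MEF libraries had 4.18 to 7.83 CPM of them.

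Liver transcripts set 2 libraries furthest apart from the others of their cell model, which bears on complement genes because the liver expresses many of them. In the library of the SR culture Z908 labelled untreated, 17 liver genes summed to 1770 CPM and all 17 were over the floor. The other 8 organoid libraries labelled untreated had 19.3 to 165 CPM and the 9 labelled TNF-treated, with the partner of the Z908 library among them, had 26.2 to 57.4 CPM. The highest of the 8, the GF culture Z919, had 16 of the 17 genes over the floor, and the next, the GF culture Z917, had 74.1 CPM. Of the 3 MEF libraries, replicate 2 had 149 CPM and the others 0.902 and 1.65 CPM. The comparisons of members are therefore also given without culture Z908 or MEF replicate 2 where a called value moved by over 1.5 times.

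For the members that set a label or a cell model apart, the 250 bases before the start of the gene are shown from RefSeq (build GRCm38.p6). The set of promoters used here held an entry for 4 of the 8 genes, and the others were not looked up elsewhere. The bases are written 5′ to 3′ on the strand of the gene, with matches to a searched motif in capitals. They lie at chr17:57228137-57228386 on the minus strand for C3, whose level followed the TNF label. For Cd55, which set organoids apart, they lie at chr1:130462745-130462994 on the minus strand. For Cd59a, which set m-ICc12 cells apart, they lie at chr2:104095551-104095800 on the plus strand.
C3: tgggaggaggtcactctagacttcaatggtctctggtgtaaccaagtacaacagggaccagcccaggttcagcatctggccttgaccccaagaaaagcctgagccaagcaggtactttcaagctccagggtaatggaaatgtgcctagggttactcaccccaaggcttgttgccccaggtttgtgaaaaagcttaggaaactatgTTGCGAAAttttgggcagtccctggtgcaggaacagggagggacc
Cd55: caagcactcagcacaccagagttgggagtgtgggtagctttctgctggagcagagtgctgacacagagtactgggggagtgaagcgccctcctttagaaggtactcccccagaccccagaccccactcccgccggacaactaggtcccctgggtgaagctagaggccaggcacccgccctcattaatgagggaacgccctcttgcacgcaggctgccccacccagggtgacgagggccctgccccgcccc
Cd59a: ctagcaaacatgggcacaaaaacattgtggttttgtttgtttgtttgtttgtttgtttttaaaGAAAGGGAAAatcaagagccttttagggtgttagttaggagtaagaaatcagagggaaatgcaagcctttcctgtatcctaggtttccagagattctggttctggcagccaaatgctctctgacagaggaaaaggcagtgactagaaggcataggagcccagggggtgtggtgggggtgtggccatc

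In C3 the capitals mark TTGCNNAA, which is contained in C/EBP sites, from 45 to 38 bases before the start. In Cd59a they mark GAAANNGAAA, the core of the interferon-stimulated response element, from 187 to 178 bases before the start. The first was found in 9.56% and the second in 2.98% of 32851 mouse promoter entries over the same 250 bases, on either strand. The consensus of NF-κB sites, in 7.25% of the entries, had no match in the 4 members searched, and neither did any of these motifs in Cd55 and Cd46. These letters say nothing on whether a factor binds there.

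**Figure D1:**
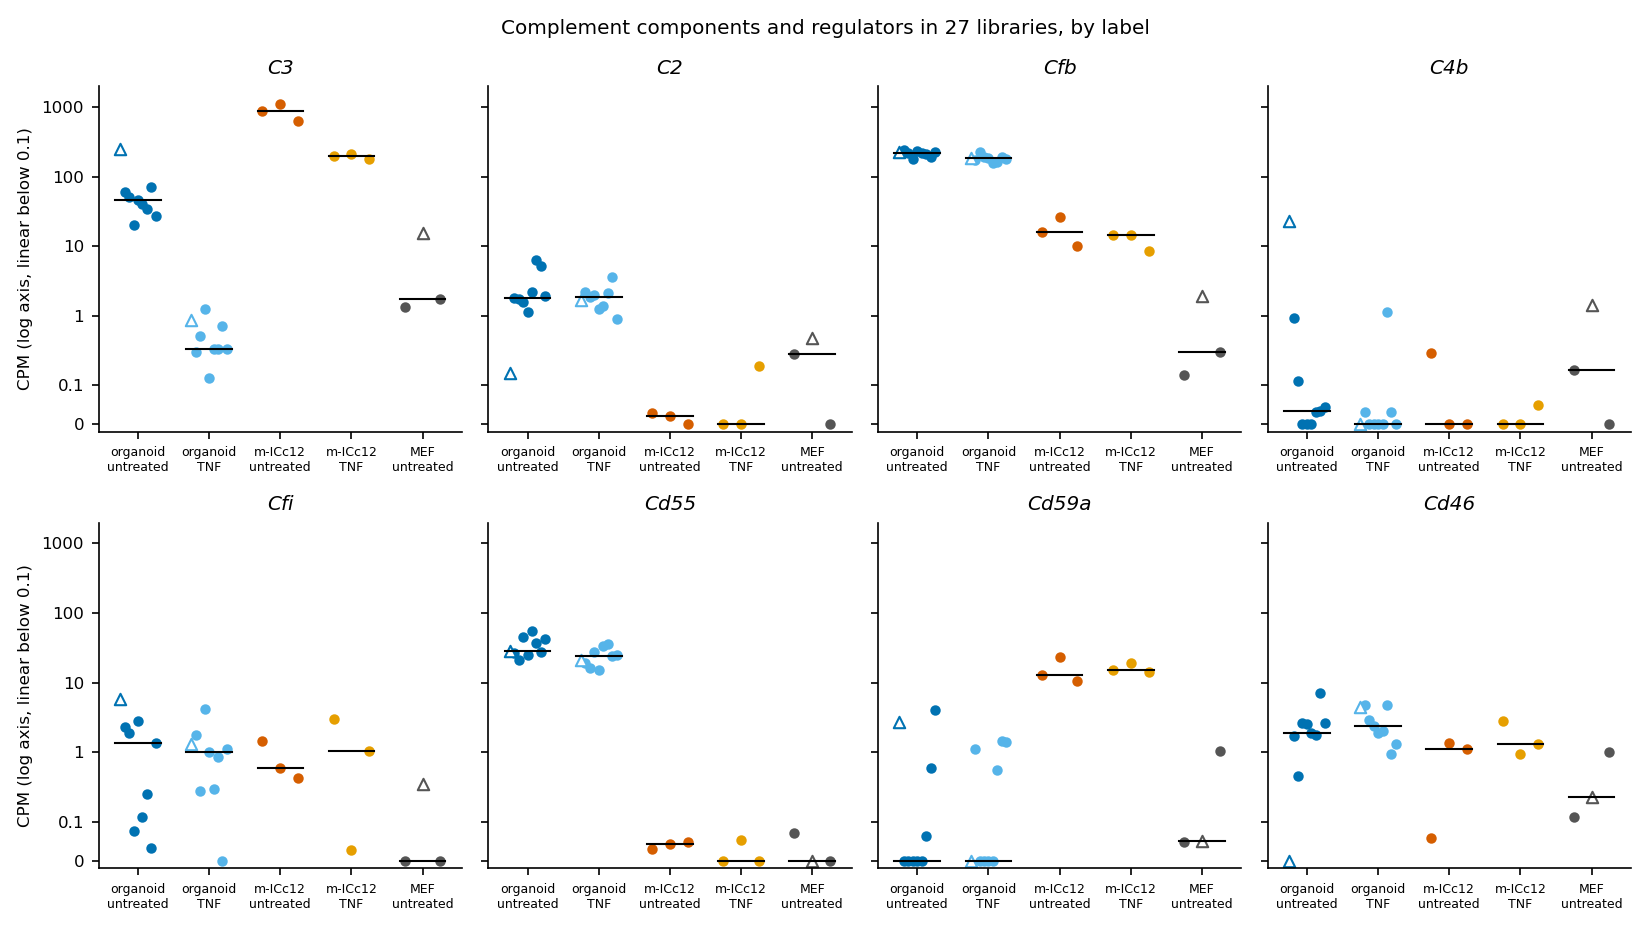
CPM of the 8 members (log axis, linear below 0.1) in every library, by cell model and label, with a line at the median. Open triangles are the libraries of culture Z908 and MEF replicate 2. C3 separates the labels in organoids and in m-ICc12 cells, Cfb, Cd55 and C2 are highest in organoids, and Cd59a is highest in m-ICc12 cells.

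C3 is the central component (ENSMUSG00000024164, chromosome 17 of GRCm38 from 57203970 to 57228136, minus strand). It was the only member called by label in the main fits, which did not pair the libraries of a culture. With the culture as a block, Cfb and Cd55 were also called in organoids. In the organoid libraries labelled untreated, the lowest level of C3 was 20.1 CPM, its median 45.65 CPM and its highest, in Z908, 246.9 CPM. The libraries labelled TNF-treated had a lowest level of 0.1275, a median of 0.3375 and a highest level of 1.27 CPM. The labels did not overlap, and within the 9 cultures C3 was 15.9-fold to 358-fold lower in the library labelled TNF-treated, with a median of 103-fold. The libraries labelled TNF-treated held only 4 to 31 counts of C3, so that the single ratios are imprecise. The highest ratio, in Z912, rests on 4 counts. The means were 66.0 ± 69.6 and 0.534 ± 0.358 CPM (SD, n = 9 each), and 43.4 ± 16.6 and 0.491 ± 0.357 CPM without Z908 (SD, n = 8 each). In edgeR's quasi-likelihood F-test with Benjamini-Hochberg adjustment, the log2 fold change of the label TNF against untreated was −7.05 (standard error 0.49, adjusted p = 1.5e-10). It was −6.61 without Z908 (adjusted p = 3.4e-12 in edgeR).

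In m-ICc12 cells, C3 was at 877.4, 1108 and 624.8 CPM in the libraries labelled untreated and at 196.2, 212.3 and 179.7 CPM in those labelled TNF-treated. These labels did not overlap either, and the ratio between libraries of the same number lay between 3.48 and 5.22. By label, the log2 fold change amounted to −2.13 with a standard error of 0.19 (adjusted p = 4.8e-05 in edgeR). The difference by label was thus larger in organoids. The interaction, m-ICc12 minus organoid, was 4.91 on the log2 scale (standard error 0.78, adjusted p = 0.0031 in edgeR) and 4.51 without Z908 (adjusted p = 9.3e-06). The low end differed between the models, as C3 kept 179.7 to 212.3 CPM in the m-ICc12 libraries labelled TNF-treated, above 8 of 9 organoid libraries labelled untreated.

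No other member passed the test of the TNF label in the main fits, which had no block for the culture. In organoids, 6 members were tested and 1 was called, against 1.39% of 12104 genes. C4b and Cd59a were below the filter of 10 counts in 50% of the libraries of a group. In m-ICc12 cells 1 of 5 tested members was called, against 0.110% of 11861 genes, and C2, C4b and Cd55 were below the filter. The interaction called 1 of 7 members, against 0.159% of 13183 genes. The culture number names the same mouse in both organoid libraries, and with the culture as a block 3 of 6 members were called, as Cfb and Cd55 passed as well, against 3.28% of 12104 genes in that fit.

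**Figure D2:**
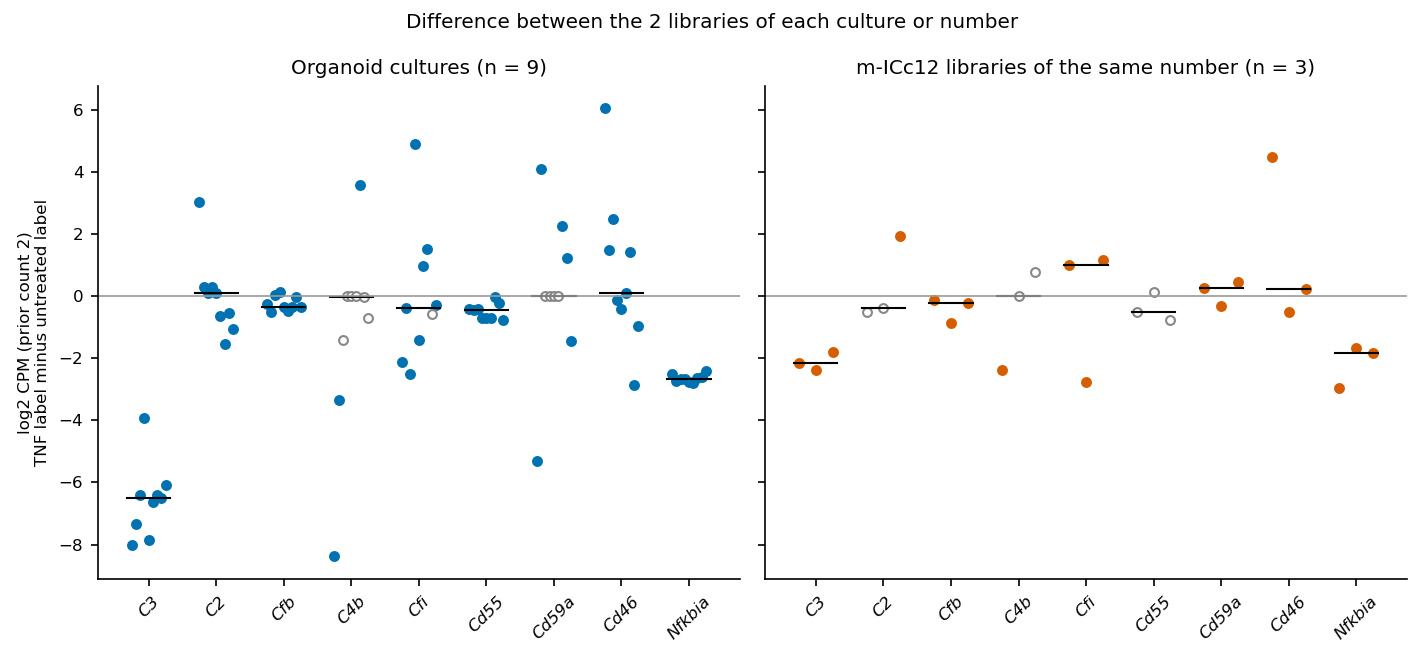
Difference in log2 CPM (prior count 2) between the library labelled TNF-treated and the one labelled untreated of each organoid culture, or of the same number in m-ICc12 cells, with a line at the median. Grey open points have at most 3 counts in both libraries, and Nfkbia is shown as a known TNF target. C3 is below 0 at all 12 points, Cd55 in all 9 organoid cultures, and C2, Cfi and Cd46 fall on both sides of 0.

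Between the cell models, C3 was highest in m-ICc12 cells. The mean of the m-ICc12 libraries labelled untreated was 870 ± 242 CPM (SD, n = 3), 13.2-fold that of the organoids and 20.0-fold without Z908. The log2 fold change of organoid against m-ICc12 was −3.69 (standard error 0.51, adjusted p = 9.2e-06 in edgeR) with the libraries labelled untreated and −8.61 (standard error 0.30, adjusted p = 1.2e-13) with those labelled TNF-treated. MEFs had 1.33, 15.5 and 1.76 CPM, the middle value being replicate 2 with the liver transcripts. The m-ICc12 libraries labelled untreated were above them by 7.07 on the log2 scale (standard error 0.76, adjusted p = 4.6e-06 in edgeR), and by 9.17 without MEF replicate 2.

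For organoids and MEFs, the sign of the difference in C3 depended on the label, and its call on MEF replicate 2. By the names of the data, the organoid libraries labelled TNF-treated are the untreated ones, as the MEF libraries are. Against MEFs, the organoid libraries labelled untreated were higher by 3.43 on the log2 scale (standard error 0.91, adjusted p = 0.0033 in edgeR). Those labelled TNF-treated, compared with the same MEF libraries, gave −3.55 (standard error 0.73, adjusted p = 0.00039), but −1.52 without MEF replicate 2 (standard error 0.93, adjusted p = 0.16), when the MEF mean was 1.55 CPM in place of 6.21 CPM. Without MEF replicate 2 the first difference was 5.45, without Z908 it was 2.82, and without both it was 4.84 (adjusted p = 1e-06 in edgeR). The part of the liver transcripts in these values was not tested.

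Cfb encodes factor B, the protease of the alternative pathway convertase (ENSMUSG00000090231, chromosome 17 from 34856374 to 34862518, minus strand) and was the most abundant member in organoids per length of transcript. Its level ranged from 176.6 to 244 CPM (median 218.4) under the label untreated and from 155.1 to 223.7 CPM (median 182.5) under the label TNF, so that the labels overlapped. It was lower under the label TNF in 7 of 9 cultures. Its log2 fold change of −0.24 had a standard error of 0.07 (adjusted p = 0.15 in edgeR), and it was −0.24 with adjusted p = 0.025 with the culture as a block. In m-ICc12 cells Cfb was at 15.8, 26.4 and 10.0 CPM under the label untreated and at 14.5, 14.4 and 8.60 CPM under the label TNF, with −0.47 as the log2 fold change (standard error 0.37 and adjusted p = 1 in edgeR). The labels overlapped in this line, and each of the 3 numbers had the lower value under the label TNF.

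Organoids had the most Cfb. Every one of the 18 organoid libraries was above every m-ICc12 library, and these in turn were above the MEFs, which had 0.142, 1.94 and 0.307 CPM. In the libraries labelled untreated, the log2 fold change was 3.66 for organoid against m-ICc12 (standard error 0.24, adjusted p = 1.4e-09), 8.04 for organoid against MEF (standard error 0.50, adjusted p = 6.1e-10) and 4.39 for m-ICc12 against MEF (standard error 0.76, adjusted p = 0.00028), all in edgeR. Without MEF replicate 2, whose value was the highest, the differences from MEFs were 10.0 (adjusted p = 7.6e-14) and 6.34 (adjusted p = 9.2e-07). The libraries labelled TNF-treated gave 3.90, 7.79 and 3.94, and against MEFs without replicate 2 9.77 and 5.82. Z908 labelled untreated, in contrast, was at 223.6 CPM and within the range of the other organoids.

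C2, the corresponding protease of the classical and lectin convertase (ENSMUSG00000024371, chromosome 17 from 34862604 to 34898265), lies 85 bases from Cfb on the same strand, in the major histocompatibility complex, but was far less abundant. Its level was 0.149 to 6.35 CPM (median 1.79) in the organoid libraries labelled untreated and 0.900 to 3.56 CPM (median 1.88) in those labelled TNF-treated. The labels overlapped, with the lower value under the label TNF in 4 of 9 cultures. Z908 labelled untreated had the lowest value of the 18, from 4 counts, while the other 8 libraries with this label had at least 1.14 CPM. Its fold change by label on the log2 scale was −0.39 (standard error 0.55, adjusted p = 0.94 in edgeR).

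C2 was nearly absent from m-ICc12 cells, in which the 6 libraries held 0 to 4 counts. The mean of the organoid libraries labelled untreated, 2.45 ± 1.99 CPM (SD, n = 9), was at least 31.1-fold higher than a floor of 3 counts per library in the m-ICc12 libraries with that label. The edgeR test gave an adjusted p of 0.00053 for this comparison. MEFs had 0.285, 0.479 and 0 CPM of C2, and organoids were higher by 3.25 on the log2 scale (standard error 1.22, adjusted p = 0.028 in edgeR). That call was lost without MEF replicate 1 (adjusted p = 0.085) and without MEF replicate 3 (adjusted p = 0.082), and the difference was 4.04 without MEF replicate 2 (adjusted p = 0.04 in edgeR).

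Reads on Cfb and C2 are shared with the annotated read-through gene Gm20547, which covers exons of both on the same strand, with 2246 bases in common with the 2825 exonic bases of Cfb and 1656 with the 3872 of C2. The count of Gm20547 was 89.6% to 99.3% of the sum of Cfb and C2 in the organoid and m-ICc12 libraries, so that the deposited table lists nearly as many reads under its name. In the 6 m-ICc12 libraries, Gm20547 had 82 to 1188 counts and Cfb 83 to 1207, while C2 had 0 to 4. The counts of Gm20547 there were thus near those of Cfb and far from those of C2. Which transcript gave these reads was not tested. Zbtb12, on the opposite strand, shares 161 exonic bases with C2 and had 125 to 1026 counts in the m-ICc12 libraries, in which C2 had at most 4. Whether strand was kept and used in counting is not settled by the sources used here.

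**Figure D3:**
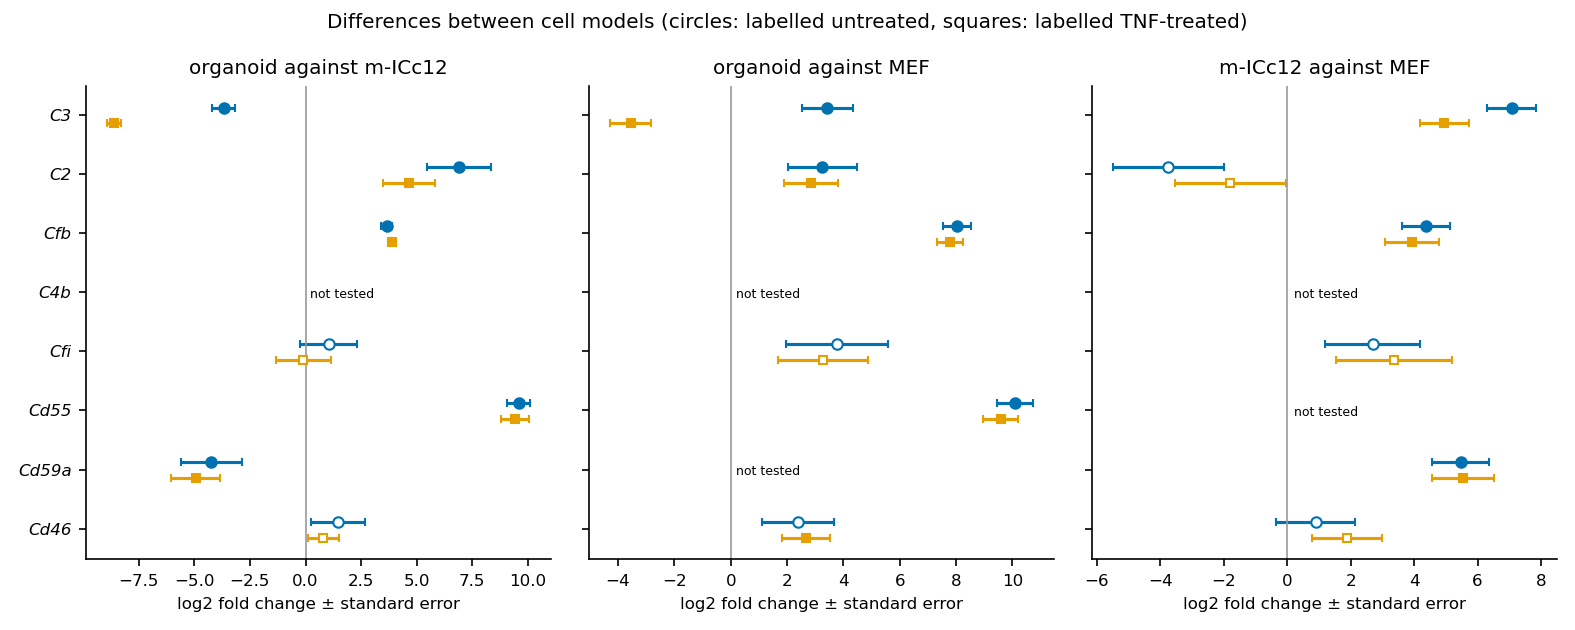
Log2 fold changes between cell models with their standard errors from edgeR, for libraries labelled untreated (circles) and labelled TNF-treated (squares; the MEF libraries are the same in both). Filled symbols have an adjusted p under 0.05. C3 lies on opposite sides of 0 for organoid against MEF, where its value for the label TNF is not called without MEF replicate 2, and Cfb, Cd55, Cd59a and C2 keep their side.

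Counted over the members, 5 of the 7 tested differed between organoids and m-ICc12 cells, 3 higher and 2 lower in organoids, against 60.9% of 12962 genes. Between organoids and MEFs 4 of 6 differed, all higher in organoids, against 67.2% of 13144 genes. Between m-ICc12 cells and MEFs 3 of 6 differed, all higher in m-ICc12 cells, against 59.3% of 12830 genes. Most genes differed in each of these comparisons, so that the share of members called was near that of all genes.

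C4b, the component cleaved in the classical and lectin pathways (ENSMUSG00000073418, chromosome 17 from 34728380 to 34743882), was detected at more than a trace in 1 library. Z908 labelled untreated had 22.98 CPM and its partner labelled TNF-treated had 0. Among the other 17 organoid libraries the highest values were 1.13 CPM in the GF culture Z917 labelled TNF-treated and 0.930 CPM in the SR culture Z909 labelled untreated, and 9 of these libraries had 0 counts. The m-ICc12 libraries had at most 0.293 CPM and the MEF libraries 0.166, 1.41 and 0 CPM, with the highest value again in replicate 2. C4b passed the filter only in the comparison of SE with SR organoids. Its near-identical neighbour C4a was looked for by name and not found among the genes counted. How reads that align to both were treated is not given in the sources used here.

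The members did not all move with the liver transcripts. In Z908 labelled untreated, C3, C4b and Cfi were the highest of the 18 organoid libraries, Cfb and Cd55 were within the range of the others, and C2 and Cd46 were the lowest. Cd59a, at 2.68 CPM, was below only that of Z919 labelled untreated, at 3.99 CPM. All 17 liver genes were highest in the Z908 library, which follows largely from its choice by their sum. Of 39 further complement genes, 14 were highest there. The share was 10.8% of the 11914 genes above background in organoids, but the 39 were not filtered in this way, so that the shares are of unlike sets. Among the 14 were 5 of 7 components of the terminal pathway, which forms the membrane attack complex, with C9 at 7.82 CPM and Hc, which encodes C5, at 7.08 CPM. The soluble regulator Vtn was at 38.8 CPM there, against at most 1.76 CPM in the other 17 organoid libraries. In MEF replicate 2, C3, C2, Cfb, C4b and Cfi were the highest of the 3 MEF libraries, against 39.3% of the 11878 genes above background in MEFs. Of these members, Cfb, C4b and Cfi were themselves below that background in MEFs. Whether RNA of liver cells is the source of these reads was not tested.

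**Figure D4:**
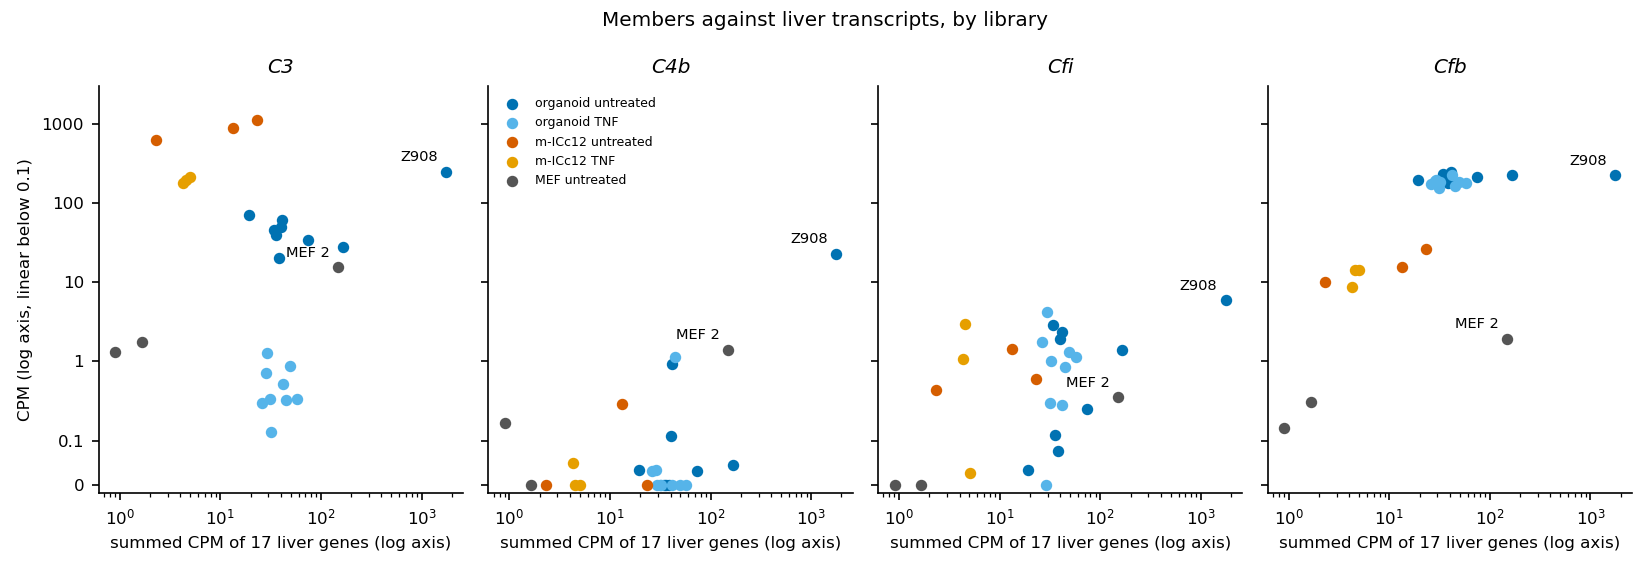
CPM of 4 members (log axis, linear below 0.1) against the summed CPM of 17 liver genes (log axis), 1 point per library. Z908 labelled untreated is at 1770 CPM of liver genes and has the highest C4b and Cfi of the 27 libraries and the highest C3 of the organoids, while its Cfb is within the range of the other organoids.

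Cfi, the soluble protease that inactivates C3b and C4b (ENSMUSG00000058952, chromosome 3 from 129835884 to 129875332, plus strand), was low in all models. It ranged from 0.0332 to 5.885 CPM (median 1.37) in the organoid libraries labelled untreated, with Z908 the highest, and from 0 to 4.25 CPM (median 1.02) in those labelled TNF-treated. The labels overlapped, and the log2 fold change by label, −0.46 (standard error 0.87; adjusted p = 0.95 in edgeR), became 0.08 without Z908. The m-ICc12 libraries had 1.44, 0.591 and 0.433 CPM under the label untreated and 2.96, 0.0269 and 1.06 CPM under the label TNF. MEFs had 0, 0.353 and 0 CPM, the only reads being in replicate 2. Against MEFs, organoids had a log2 difference of 3.76 (standard error 1.81, adjusted p = 0.077 in edgeR), which passed without MEF replicate 2 (8.54, adjusted p = 0.015), without this library and Z908 (7.98, adjusted p = 0.019) and with DESeq2 (adjusted p = 0.018). For m-ICc12 cells against MEFs, 2.69 (adjusted p = 0.14) became 7.96 without MEF replicate 2 (adjusted p = 0.023 in edgeR). The MEF libraries other than replicate 2 had 0 counts of Cfi. The sizes of 8.54, 7.98 and 7.96 are therefore arbitrary, and only their direction can be read.

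Cd55, the membrane protein that dissociates the convertases (ENSMUSG00000026399, chromosome 1 from 130439027 to 130462744, minus strand), was found in organoids but not above the floor elsewhere. It ranged from 21.5 to 54.65 CPM (median 28.2) under the label untreated and from 15.1 to 35.8 CPM (median 23.9) under the label TNF. The groups overlapped, but each of the 9 cultures had the lower value in the library labelled TNF-treated, with ratios from 1.03 to 1.72. On the log2 scale the difference was −0.51 (standard error 0.19, adjusted p = 0.33 in edgeR). With the culture as a block it was −0.50 (standard error 0.13, adjusted p = 0.018).

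The 6 m-ICc12 libraries and the 3 MEF libraries held 0 to 3 counts of Cd55. The mean of the organoid libraries labelled untreated, 34.3 ± 11.2 CPM (SD, n = 9), was at least 434-fold higher than a floor of 3 counts per library in the m-ICc12 libraries with that label and at least 384-fold higher than that floor in MEFs. Adjusted p was 9.7e-11 against m-ICc12 cells and 7.3e-10 against MEFs in edgeR. The paralog Cd55b was at 1.62 ± 1.81 CPM (SD, n = 9) in the same organoid libraries and at 0 in all m-ICc12 and MEF libraries, and how reads that fit both genes were assigned is not given in the sources used here.

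Cd59a, the inhibitor of the membrane attack complex (ENSMUSG00000032679, chromosome 2 from 104095801 to 104115354, plus strand), had the opposite pattern. The m-ICc12 libraries had 12.8, 23.7 and 10.4 CPM under the label untreated and 15.3, 18.9 and 14.3 CPM under the label TNF, which overlapped (log2 fold change 0.06, standard error 0.33, adjusted p = 1 in edgeR). Organoid libraries had 0 to 3.99 CPM under the label untreated and 0 to 1.48 CPM under the label TNF, with 0 counts in 5 of 9 libraries of each label. No organoid library reached the lowest m-ICc12 library. The log2 fold change of organoid against m-ICc12 was −4.23 (standard error 1.38, adjusted p = 0.014 in edgeR), a call that was lost with DESeq2 (adjusted p = 0.097) and without m-ICc12 replicate 2 (adjusted p = 0.06). MEFs had 0.0475, 0.0504 and 1.04 CPM, and m-ICc12 cells were higher by 5.46 (standard error 0.90, adjusted p = 0.00019 in edgeR). The paralog Cd59b was near 0 throughout, with at most 0.287 CPM in organoids.

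Cd46, the membrane cofactor of factor I (ENSMUSG00000016493, chromosome 1 from 195036826 to 195092249, minus strand), was low and was not called with all libraries labelled untreated in edgeR. It ranged from 0, in Z908, to 7.20 CPM (median 1.91) in the organoid libraries labelled untreated and from 0.930 to 4.83 CPM (median 2.35) in those labelled TNF-treated, with overlap of the labels and the lower value under the label TNF in 4 of 9 cultures. By label the difference was 0.29 on the log2 scale, with a standard error of 0.63 (adjusted p = 0.96 in edgeR). m-ICc12 cells had 0.0586, 1.38 and 1.11 CPM under the label untreated and 2.79, 0.943 and 1.30 CPM under the label TNF, and MEFs had 0.119, 0.227 and 0.997 CPM. Against MEFs, the difference of organoids of 2.39 (adjusted p = 0.11) passed without Z908 (2.56, adjusted p = 0.03 in edgeR). It also passed with the libraries labelled TNF-treated (2.68, adjusted p = 0.0095) and with DESeq2 (adjusted p = 0.049). An uncounted gene on the opposite strand, A330023F24Rik, shares 1079 of the 7603 exonic bases of Cd46.

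Per kilobase of exon, which allows genes to be compared, the order of the members differed between the models. In organoid libraries labelled untreated, Cfb led with 76.4 ± 7.28 CPM per kilobase, followed by C3 with 12.8 ± 13.5 and Cd55 with 7.06 ± 2.31 (SD, n = 9). C3 and Cd55 did not differ beyond their spread, also without Z908, when they were at 8.44 ± 3.24 and 7.22 ± 2.42 (SD, n = 8). The other 5 members lay between 0.304 and 0.742 CPM per kilobase with overlapping spreads. Under the label TNF, C3 fell to the seventh place with 0.104 ± 0.0697 CPM per kilobase, above C4b alone. In m-ICc12 cells, C3 led under both labels, with 169 ± 47.0 and 38.1 ± 3.17 CPM per kilobase (SD, n = 3). Cd59a with 8.64 ± 3.91 and Cfb with 6.16 ± 2.95 came next under the label untreated and did not differ beyond their spread. In MEFs C3 was first, with 1.21 ± 1.57 CPM per kilobase (SD, n = 3) and 0.301 ± 0.0598 without replicate 2 (SD, n = 2), when it was level with Cd59a at 0.299 ± 0.386.

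The origin of the organoids was compared in the libraries labelled untreated. Between GF and SPF organoids, 0 of 7 tested members were called by edgeR and by DESeq2 and 0 had an unadjusted p under 0.05, against 0.0325% of 12315 genes called. C3 was at 33.9, 69.9 and 27.4 CPM in the GF cultures, within the range of 20.1 to 246.9 CPM of the SPF cultures, and its log2 difference of −0.82 (standard error 0.57) was 0.02 without Z908. Cd59a was at 0.0629, 0.597 and 3.99 CPM in the GF cultures. Of the SPF cultures only Z908 had reads of it, at 2.68 CPM (log2 difference 1.77, standard error 1.87). Without Z908 the size of that difference is therefore arbitrary. Under the label TNF, the GF cultures had 0.564, 1.48 and 1.41 CPM of Cd59a, and of the SPF cultures only Z909 had reads, at 1.12 CPM. This pattern was picked after the values were seen. Between SE and SR organoids, 0 of 7 tested members were called by either tool, against 0.00% of 12219 genes in edgeR (486 at an unadjusted p under 0.05, and 10 called in DESeq2). C3, C4b and Cd55 had an unadjusted p under 0.05. C3 was at 246.9, 60.5 and 50.1 CPM in the SR cultures and at 20.1, 45.65 and 39.8 CPM in the SE cultures. Its log2 difference was −1.76 (standard error 0.47, adjusted p = 0.79 in edgeR) and −0.65 without Z908. C4b had no count in the 3 SE libraries, and its SR values were 22.98, 0.930 and 0.116 CPM (adjusted p = 0.43, and 1 without Z908, in edgeR). Cd55 was at 28.2, 26.4 and 21.5 CPM in SR and at 44.85, 24.9 and 54.65 CPM in SE organoids (adjusted p = 1 in edgeR).

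The further complement genes showed how much of the cascade these cells transcribed. Of 39 such genes, 20 were at or under the floor in each of the 8 organoid libraries labelled untreated other than Z908, 26 in the m-ICc12 libraries with that label and 30 in the MEF libraries other than replicate 2. The sets hold 8, 3 and 2 libraries, and staying at or under the floor in each is easier with fewer libraries, so that these numbers do not rank the models. A mean of at least 10 CPM was reached by 2 of the 39 genes in each of these sets. In organoids these were Cr1l, the rodent membrane regulator of C3 convertases, with 60.5 ± 8.43 CPM (SD, n = 8), and C4bp, a soluble cofactor of factor I, with a mean of 27.4 and a range of 1.86 to 50.2 CPM (n = 8). In m-ICc12 cells they were Clu, clusterin, a soluble inhibitor of the terminal complex, with 50.7 ± 8.49 CPM, and Cr1l with 37.5 ± 5.64 CPM (SD, n = 3). In MEFs they were Masp1, a protease of the lectin pathway, with 57.6 ± 17.6 CPM, and Cr1l with 44.1 ± 1.45 CPM (SD, n = 2). Of the 7 terminal components, 5 of 7 were at or under the floor in these organoids, 6 in m-ICc12 cells and 7 in MEFs.

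None of these further genes passed the test of the TNF label in edgeR, where 8 were tested in organoids and 9 in m-ICc12 cells. C1ra, a protease of the C1 complex, had an unadjusted p of 0.01 in organoids in edgeR, with 0.978 ± 1.61 CPM under the label untreated and 0.0893 ± 0.207 CPM under the label TNF (SD, n = 9 each), and an adjusted p of 0.3 in edgeR. Its highest value, 5.07 CPM, was that of Z908 labelled untreated. In m-ICc12 cells C4bp had the only unadjusted p under 0.05, at 0.038 (adjusted p = 1 in edgeR), with 0.443 ± 0.279 CPM under the label untreated and 2.99 ± 3.45 CPM under the label TNF (SD, n = 3 each). Cr1l was at 61.8 ± 8.85 and 62.0 ± 11.5 CPM in organoids (SD, n = 9 each). The 8 genes tested in organoids had a median log2 fold change of 0.04, and the 6 members tested one of −0.43, beside 0 over all genes tested.

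Between the models, 4 of 11 further genes tested were higher and 3 lower in organoids than in m-ICc12 cells by edgeR, a share near the 60.9% of all genes called. The higher ones were C4bp, Cd55b, Cr1l and Itgam, the alpha chain of complement receptor 3, and the lower ones were Clu, Masp1 and Itgb2, the beta chain of that receptor. The chains were found in different models, with Itgam at 5.06 ± 2.85 CPM in organoids (SD, n = 9) and Itgb2 at 4.75 ± 1.80 CPM in m-ICc12 cells (SD, n = 3). Immune markers, a list of 9 genes that holds Itgam, summed to 75.0 to 144 CPM in m-ICc12 cells, 4.03 to 19.9 CPM in organoids and 1.83 to 3.27 CPM in MEFs, and their part in these levels was not tested. Only 2 to 4 of the 9 were over the floor in an m-ICc12 library, 2 to 5 in an organoid library and 1 to 4 in a MEF library, so that the sums rest on few genes. Fibroblast markers summed to at most 9.09 CPM in organoids and 16.03 CPM in m-ICc12 cells, against 3238 to 4283 CPM in MEFs. Itgam had 0 counts in the 3 m-ICc12 libraries labelled untreated, and Itgb2 had 0 counts in 7 of 9 organoid libraries with that label. Against MEFs, 5 of 11 were higher and 2 lower in organoids, and 3 of 10 were higher and 2 lower in m-ICc12 cells, which is not above the 67.2% and 59.3% of all genes called. Both were lower in Masp1 and in C3ar1, the receptor of the C3a fragment, which was at 1.26 ± 0.421 CPM in MEFs (SD, n = 3).

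**Figure D5:**
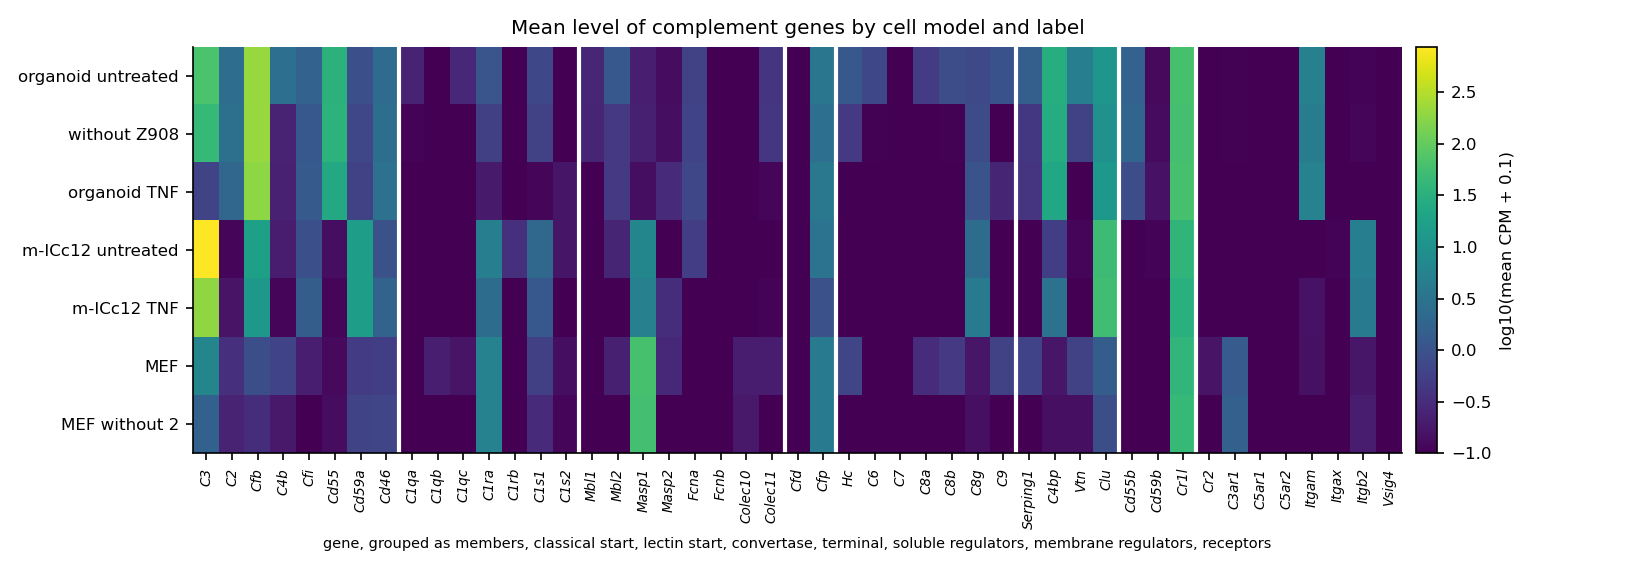
Mean level, as log10(mean CPM + 0.1), of the 8 members and 39 further complement genes, grouped by role, with and without Z908 labelled untreated and MEF replicate 2. C3, Cfb, Cd55, C4bp, Clu and Cr1l stand out among mostly dark columns, and most terminal components drop to the floor once Z908 or MEF replicate 2 is left out.

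Across the 27 libraries, the genes whose log2 CPM was most like that of each member were named by Pearson's r, as a description, since the libraries fall into 3 cell models and share their depth and scaling. For C3 these were Cyba with 0.864, Bcl2l1 with 0.840 and Arhgef28 with 0.835. For Cfb they were Gm20547 with 1.000, which shares its reads, Mgst1 with 0.991 and Mgat4a with 0.990. Cd55 was most like Bicdl2 with 0.993, 1700019D03Rik with 0.992 and Foxa2 with 0.992. For C2 they were Zfp296 with 0.916, Ccdc125 with 0.913 and Isoc1 with 0.912, and for Cd59a Syt14 with 0.862, Lbp with 0.861 and Zbtb16 with 0.860. C4b was most like Plg with 0.829, Itih4 with 0.825 and Fetub with 0.825, which are genes of liver plasma proteins. Cd46 was most like Them4 with 0.796, Jmjd7 with 0.769 and Ptcd2 with 0.750. Cfi had the weakest likeness, with Tbccd1 at 0.661, Aarsd1 at 0.658 and Gm27029 at 0.652. Among the members themselves, C2, Cfb and Cd55 were the most alike, with r of 0.692 to 0.872, and C3 was not close to any of them, with r of −0.517 to −0.160.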

How the data were processed

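RNA of organoids, m-ICc12 cells and MEFs was sequenced after poly-A selection with a TruSeq kit, which the labels call stranded and the study's methods do not. The authors trimmed the reads with Trimmomatic and aligned them to GRCm38 with STAR. They counted them per gene, and the deposited values are these whole-number counts without normalization. The submitters' processing notes name bcl2fastq 2.19, STAR 2.5.4b and featureCounts, whereas the study's methods name GenomicRanges as the counter. The use of strand in counting, the treatment of reads that fit several genes and that of overlapping genes are not given in the sources used here, which matters for Cfb, C2, C4b, Cd55 and Cd59a.

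Groups came from the sample labels. The 8 members and the lists of 39 further complement genes, 8 TNF targets and the liver, immune, fibroblast and intestinal markers were chosen with earlier results of these data known. The named genes are the members, further genes called by label or with the highest means in a cell model, and the 3 genes most like each member. C1ra, C3ar1, Itgam, Itgb2, the paralogs Cd55b and Cd59b and the genes named in Z908 were chosen after their values were seen. Another complement gene is not reported here. Counts were analysed with edgeR 4.0.16 in R 4.3.3 (TMM, genes with at least 10 counts in 50% of the libraries of a group, quasi-likelihood F-test, Benjamini-Hochberg over all genes tested, threshold 0.05), with only the groups compared in each fit. The standard error is the log2 fold change divided by the square root of F. CPM per kilobase divides by the union of exons in GENCODE vM21. The scripts were tested on simulated data.

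Alternatives were DESeq2 1.42.0, its size factors, no filter, a block for the culture, a covariate for the facility, the libraries of the other label and leaving out each culture. Leaving out Z908 and MEF replicate 2 together, and leaving out the latter with the label TNF were added after the data were seen. In organoids the block rests on the shared mouse, and the 2 libraries of a culture deviated together with r of 0.0719 to 0.237, each highest with its own number. The m-ICc12 values of 0.0301, −0.000767 and 0.0926 do not show pairs. Python 3.11.15 with pandas 2.3.3, numpy 2.4.6 and matplotlib 3.10.9 made the tables and plots.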

Additional observations from a re-analysis of the deposited data

Results flagged for a closer look

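Dixon's test was applied to CPM in 16 groups of 9 organoid libraries (8 members under each label). In 7 of the groups, 1 library lay apart from the others by more than its 95% limit. That limit is passed in about 1 of 20 groups only for normally distributed values. C4b under the label TNF had 0 counts in 6 of 9 libraries, so that this rate does not apply here. Culture Z908 labelled untreated gave 3 of the 7, with C3 at 246.9 CPM (next highest 69.9), C4b at 22.98 CPM (next 0.930) and Cfi at 5.885 CPM (next 2.84). This is the organoid library with the most liver transcripts, whose part was not tested. The others came from different cultures. Z917 labelled TNF-treated had C4b at 1.127 CPM (next 0.0321), Z911 labelled TNF-treated had Cfi at 4.255 CPM (next 1.78), Z918 labelled TNF-treated had C2 at 3.561 CPM (next 2.20) and Z918 labelled untreated had Cd46 at 7.201 CPM (next 2.62).

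The change of C3 by label differed between the cell models, with an interaction of 4.912 on the log2 scale, m-ICc12 minus organoid. C3 was lower under the label TNF in 9 of 9 organoid cultures, and the labels did not overlap in m-ICc12 cells.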

How the results depend on the processing

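The values of single members were recomputed 677 times under the alternatives, and 639 kept their direction and their side of the threshold, 4 lost and 11 gained the call, and 23 changed sign. The call of C3 held in the TNF label comparison of both models, in the interaction and between the models under every alternative, except that it changed sign for organoid against MEF with the libraries labelled TNF-treated (−3.548), a difference that was not called without MEF replicate 2 (−1.523, adjusted p = 0.16 in edgeR). With the replicate block (culture), 3 members and 397 genes were called by label in organoids, where Cfb and Cd55 gained the call, and the numbers of genes were 6 in m-ICc12 cells and 103 in the interaction. It changed no other call of a member.

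The numbers of genes called moved by over 1.5 times in 4 further comparisons. In m-ICc12 cells by label, DESeq2 called 46 and no filter 30, against 13, and leaving out 1 culture gave 15 to 93, the last without replicate 2. The interaction had 80 with DESeq2 and 11 (without m-ICc12 replicate 2) to 40 (without m-ICc12 replicate 3) when 1 culture was left out, against 21. GF against SPF organoids had 21 with DESeq2 and 2 (without Z917, Z918 or Z919) to 5 when 1 culture was left out, against 4. SE against SR organoids had 10 with DESeq2, 1 with RLE factors, 5 without the filter, 1 with the libraries labelled TNF-treated and 0 to 35 (without Z909) when 1 culture was left out, against 0.

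The sign changed only in members not called in that comparison, apart from C3 above. With the block, Cfi in m-ICc12 cells became −0.088, and Cd55 and Cd59a in the interaction −0.076 and −0.389. With the libraries labelled TNF-treated, Cfi became −0.111 (organoid against m-ICc12), Cd46 −0.396 (GF against SPF), and C2, Cfi and Cd46 −0.328, 0.702 and −0.96 (SE against SR). When 1 culture was left out, Cfi by label in organoids ranged from −1.145 to 0.082. In m-ICc12 cells Cd59a ranged from −0.077 to 0.373 and Cd46 from −0.146 to 1.786. In the interaction C2 ranged from −2.35 to 3.138, Cfb from −0.413 to 0.026, Cd55 from −2.738 to 0.773 and Cd46 from −0.439 to 1.497. In GF against SPF organoids C3 ranged from −1.333 to 0.019, Cfb from −0.117 to 0, Cd55 from −0.043 to 0.305 and Cd59a from −0.449 to 8.356, and C2 in SE against SR organoids from −0.104 to 0.802.

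Exchanging the labels within each culture turns every sign of the TNF label comparisons and of the interaction and was not run separately. Totals of 6071103 counts in 1 m-ICc12 library limit low genes most. In C4b, Cfi, C2 and Cd46, which rest on few reads in most libraries, the lack of a call by label does not show that there was no change.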
